A study of Mus musculus with 12 samples.

Results

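The ZnT proteins, encoded by the Slc30a genes, are grouped as zinc exporters, and most of them move zinc out of the cytosol, to the outside or into organelles. The 6 members described here, Slc30a1, Slc30a4, Slc30a5, Slc30a6, Slc30a7 and Slc30a9, were taken by gene symbol from 12 tables of 55487 rows. The level of Slc30a4 was 0 in all 12 libraries. The other 5 passed the filter for testing, a level of 1 TPM (transcripts per 1e+06 transcripts) in at least 3 libraries, as did 11920 genes in all. Slc30a1 and Slc30a7 rose and Slc30a5, Slc30a6 and Slc30a9 fell in cells kept with DTPA, against both control cells and each of the other treatments.

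The cells were G1E-ER4, a mouse erythroid progenitor line without a functional Gata1 gene of its own that carries GATA1 joined to part of the estrogen receptor and matures when estradiol is added. All 4 groups received 100 nM β-estradiol and were taken after 24 h, with 3 libraries per group. The DTPA group received 50 µM DTPA, a chelator used to lower zinc. The DFO group received 50 µM DFO, a chelator used to lower iron. The SA group received 0.2 mM SA, used to lower ALAD activity and with it protoporphyrin IX. The control group received none of the 3 agents. For the SA group the treatment protocol names DFO at the dose of the DFO group, whereas the sample titles and tags name SA; the titles and tags were followed. Every library came from a single cultured line, so the spread between libraries is that between cultures of this line, which the labels call biological replicates.

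The members work at different membranes. ZnT1 (Slc30a1) sits in the plasma membrane and exports zinc from the cell. ZnT5 (Slc30a5) and ZnT6 (Slc30a6) form a heterodimer, and ZnT7 (Slc30a7) a homodimer, that load zinc into the early secretory pathway, where enzymes such as alkaline phosphatase receive it. ZnT4 (Slc30a4) serves endosomes and lysosomes, and ZnT9 (Slc30a9) moves zinc out of mitochondria, and so into the cytosol. A pair of regulatory motifs is known near genes of this kind. The metal response element (MRE) binds the zinc sensor MTF1, which in mouse activates Slc30a1 and the metallothionein genes when zinc is high. The zinc transcriptional regulatory element (ZTRE), an inverted repeat known from human SLC30A5, mediates repression at high zinc.

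The 250 bases before the RefSeq gene start are printed for Slc30a1, the member with the largest rise under DTPA, and for Slc30a5, a member that fell and whose promoter holds the letters of a ZTRE. Sequences are from RefSeq, build GRCm38.p6, in the direction of the gene, with motif matches in capitals. The Slc30a1 stretch is chr1:191906531-191906780 on the plus strand, and the Slc30a5 stretch is chr13:100833428-100833677 on the minus strand.
Slc30a1: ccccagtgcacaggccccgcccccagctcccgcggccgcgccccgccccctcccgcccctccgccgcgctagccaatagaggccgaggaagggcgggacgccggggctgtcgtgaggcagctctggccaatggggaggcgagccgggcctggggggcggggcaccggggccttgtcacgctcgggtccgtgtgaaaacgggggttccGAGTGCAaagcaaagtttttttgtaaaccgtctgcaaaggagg
Slc30a5: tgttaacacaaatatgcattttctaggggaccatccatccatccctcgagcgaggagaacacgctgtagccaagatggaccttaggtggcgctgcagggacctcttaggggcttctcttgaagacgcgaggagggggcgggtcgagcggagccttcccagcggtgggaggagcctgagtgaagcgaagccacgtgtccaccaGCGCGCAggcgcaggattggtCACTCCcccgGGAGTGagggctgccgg

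All 6 members had a promoter in the RefSeq table. MRE cores were searched as TGCACNC and TGCGCNC, and the ZTRE arm as CACTCC, on both strands and with overlapping matches counted. Slc30a1 held 1 MRE core, GAGTGCA as read along the gene (TGCACTC on the opposite strand), from 43 to 37 bases before the start (positions -43 to -37). Slc30a5 held 1 MRE core at positions -48 to -42, on the opposite strand. It also held 1 ZTRE arm on each strand, at positions -27 to -22 and -17 to -12, which face each other across a gap of 4 bases. The GENCODE start of Slc30a1, used for its position below, lies 14 bases upstream of the RefSeq start, so the last 14 bases of the printed stretch fall inside the GENCODE gene and the MRE core lies at -29 to -23 from that start; for the other 5 members the starts coincide. Slc30a4 held 2 MRE cores, and Slc30a6, Slc30a7 and Slc30a9 held neither motif in this window.

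Either MRE core occurred in 21.4% of the 32851 promoters in the table, TGCACNC in 10.4% and TGCGCNC in 12.5%. The ZTRE arm occurred in 16.6%. The facing pair with a gap of at most 10 bases, a form chosen after the Slc30a5 sequence had been seen, occurred in 9 promoters (0.0274%), Slc30a5 among them. For comparison, the same RefSeq window held 1 MRE core at Mt1 and 3 at Mt2. The RefSeq starts of these genes were not compared with their GENCODE starts. A count of cores in this window is not a count of all MREs near a gene. A match is a description of letters and was not tested for binding.

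**Figure D1:**
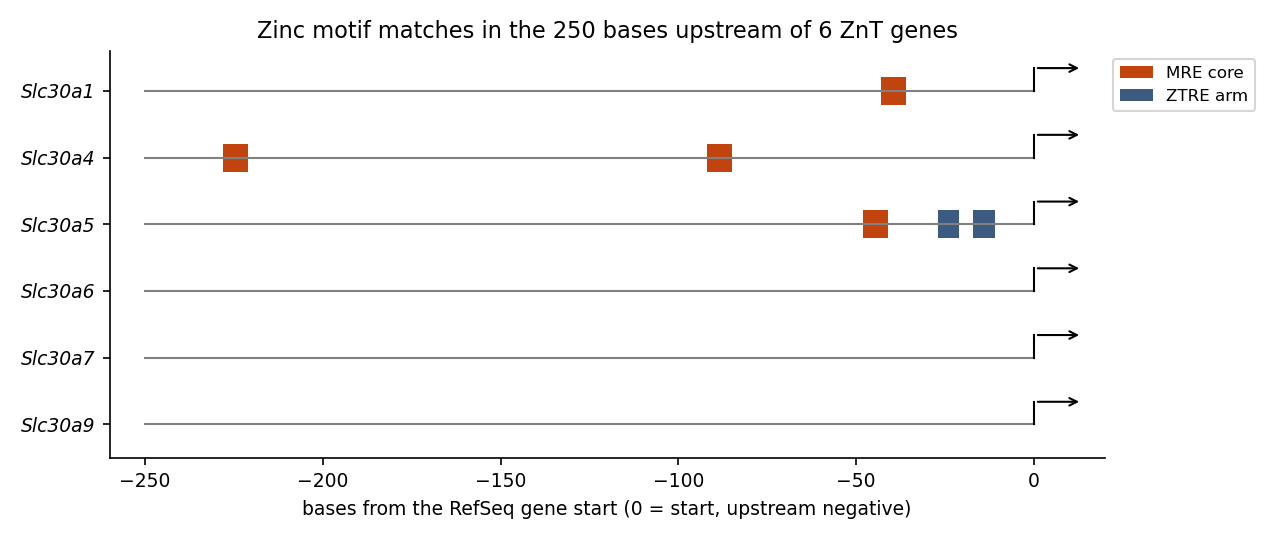
Positions of motif matches in the 250 bases before the RefSeq start of the 6 ZnT genes; the x axis is the distance from the start in bases and each line is 1 gene. Orange boxes are MRE cores and blue boxes ZTRE arms: Slc30a5 carries 1 core and 2 facing arms close to its start, Slc30a1 carries 1 core, Slc30a4 carries 2, and the other 3 genes carry none.

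The plasma membrane exporter Slc30a1 (chr1:191906767-191913247, plus strand, GRCm38) rose in DTPA cells. Its level was 74.7, 76.5 and 69.8 TPM in the DTPA libraries and 41.5, 38.3 and 37.1 TPM in the control libraries. All 3 DTPA libraries were high and the groups did not overlap. The ratio of mean levels was 1.89, and the log2 fold change was 0.90 (SE 0.0566; adjusted p = 4.76e-08, limma with Benjamini-Hochberg adjustment over all tested genes). Among all tested genes, 95.6% had a lower fold change and 12.1% a larger change in either direction.

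The 3 genes of the early secretory pathway did not move together. Slc30a5 (chr13:100802648-100833427, minus strand) was at 24.4, 22.6 and 23.4 TPM in DTPA cells, against 34.3, 31.4 and 31.7 TPM in control cells. Its partner Slc30a6 (chr17:74395608-74424221, plus strand) was at 5.98, 7.11 and 7.12 TPM in DTPA cells, against 10.6, 9.22 and 9.44 TPM in control cells. Both were low in every DTPA library, with no overlap. Their log2 fold changes were -0.45 for Slc30a5 (SE 0.0427; adjusted p = 1.86e-06, limma) and -0.48 for Slc30a6 (SE 0.0799; adjusted p = 0.000237, limma), so that the mean levels were 0.723 and 0.690 of those in control cells. The ratio of Slc30a5 to Slc30a6 was 3.51 ± 0.493 in DTPA cells and 3.33 ± 0.0877 in control cells (SD, n = 3 each), a difference within the spread of the DTPA libraries.

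Slc30a7 (chr3:115938973-116007406, minus strand), whose product works as a homodimer in the same compartment, rose instead. It was at 7.42, 8.24 and 8.52 TPM in DTPA cells and at 6.14, 5.84 and 6.15 TPM in control cells. The lowest DTPA library lay above the highest control library. Its log2 fold change was 0.36 (SE 0.0625; adjusted p = 0.000306, limma), a ratio of means of 1.33. The ratio of Slc30a7 to Slc30a6 was 1.20 ± 0.0408 in DTPA cells and 0.621 ± 0.0383 in control cells (SD, n = 3 each). In TPM the lower of the 2 genes in control cells was thus the higher in DTPA cells. Which gene is higher depends on the annotated exon bases that TPM is scaled to, 11116 for Slc30a7 and 3075 for Slc30a6. Recovered reads were more for Slc30a7 (464 to 761) than for Slc30a6 (131 to 237) in every library.

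The mitochondrial exporter Slc30a9 (chr5:67306955-67358443, plus strand) fell more than any other member. Its level was 37.7, 40.2 and 40.0 TPM in DTPA cells, against 64.6, 65.1 and 65.5 TPM in control cells. The control libraries lay within 1 TPM of each other and all DTPA libraries lay far below them. The log2 fold change was -0.71 (SE 0.0318; adjusted p = 2.36e-09, limma), and the mean level was 0.604 of that in control cells.

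**Figure D2:**
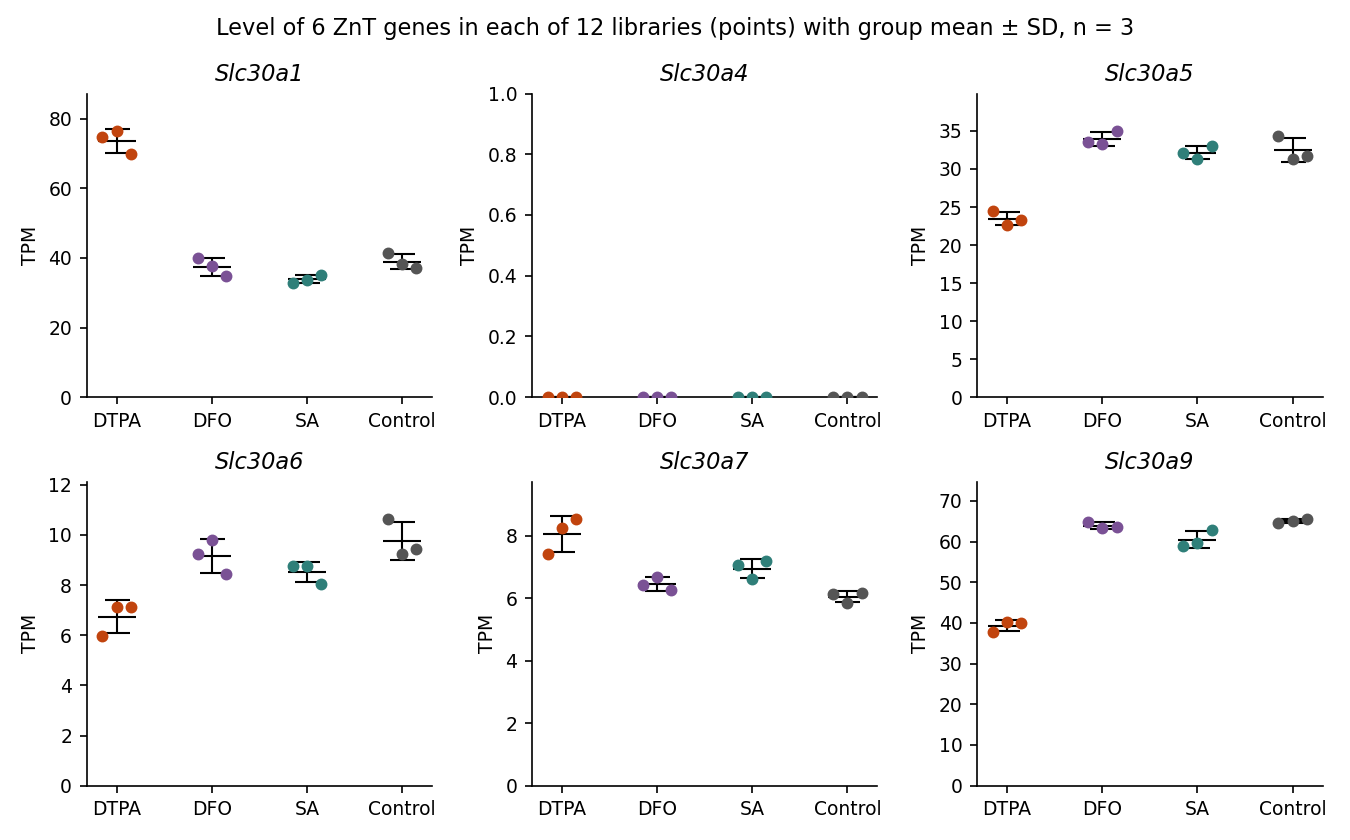
Level of the 6 ZnT genes in TPM (y axis, linear, from 0) in each library; points are libraries, and bars are the group mean ± SD of 3. In DTPA cells Slc30a1 (69.8 to 76.5 TPM) and Slc30a7 lie above and Slc30a5, Slc30a6 and Slc30a9 (37.7 to 40.2 TPM) lie below all 3 other groups, and Slc30a4 is at 0 throughout.

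Slc30a4 (chr2:122681233-122702663, minus strand) had no read in any library. A floor of 3 reads corresponds to between 0.0676 and 0.0876 TPM across the 12 libraries, for counting error only, so a level below that was not detectable at this depth. Reads per library for the other members, recovered from TPM and exon length, were between 131 and 237 for Slc30a6, 464 and 761 for Slc30a7, 1183 and 3247 for Slc30a1, 1268 and 1885 for Slc30a5, and 3324 and 6133 for Slc30a9. Slc30a6 thus had the least precise values, and its coefficient of variation within groups, 4.73% to 9.71%, was close to the 6.76% to 7.87% that counting alone gives.

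Of the 5 tested members, 2 rose and 3 fell in DTPA cells, and their groups did not overlap in 5 of 5 cases. Most genes did the same under DTPA: 65.5% of all tested genes passed, 23.5% higher and 42.1% lower, and the groups of 69.5% did not overlap. The members' count is therefore no sign that the family stands apart. The median log2 fold change was -0.45 over the 5 members and -0.11 over all tested genes. Median-of-ratios scaling moved the median of all genes by 0.12 and changed the split of called genes to 3842 higher and 3859 lower, against 2796 higher and 5015 lower as reported. Relative to the median of all genes, the members' log2 fold changes were 1.02 for Slc30a1, 0.47 for Slc30a7, -0.34 for Slc30a5, -0.36 for Slc30a6 and -0.60 for Slc30a9, and all 5 kept their direction and call under that scaling.

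**Figure D3:**
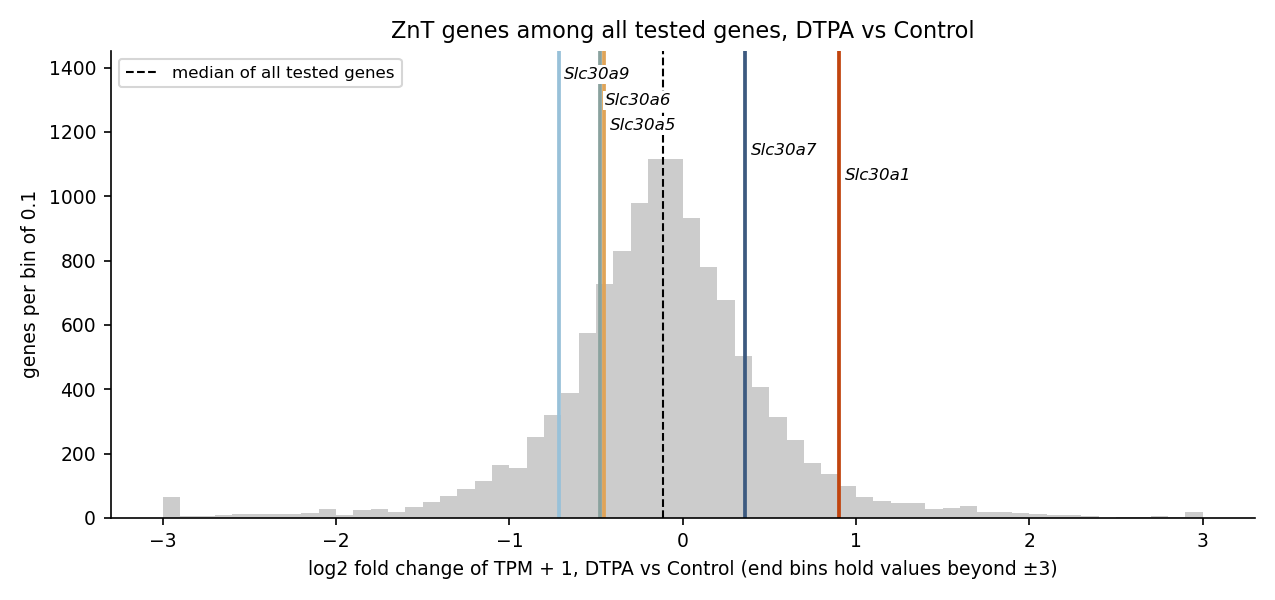
Distribution of the log2 fold change of TPM + 1 (x axis), DTPA against control, over the 11920 tested genes (grey bars, genes per bin on the y axis), with the 5 tested ZnT genes as coloured lines and the median of all genes dashed. Slc30a1 at 0.90 and Slc30a9 at -0.71 lie towards the flanks, with 12.1% and 18.9% of genes changed more than they were, while the other 3 lie where many genes lie.

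In unscaled TPM, the summed level of the 6 members was much the same in DTPA and control cells. It was 151 ± 3.05 TPM in DTPA cells, 151 ± 2.96 TPM in DFO cells, 142 ± 3.78 TPM in SA cells and 152 ± 4.27 TPM in control cells (SD, n = 3 each). The DTPA and control sums in TPM differed by less than their spread, and no test was run on the sum. Median-of-ratios scaling divides TPM by 0.905 to 0.928 in DTPA libraries and by 0.996 to 1.02 in control libraries. It would raise the DTPA sums relative to the control sums, so their likeness holds for unscaled TPM only. The make-up of the sum differed, and shares and ratios within a library do not depend on that scaling. Slc30a1 made up 48.7% ± 1.55 of the sum in DTPA cells, 24.8% ± 1.24 in DFO cells, 23.9% ± 0.292 in SA cells and 25.6% ± 0.811 in control cells. Slc30a9 made up 26.0% ± 0.888 in DTPA cells, 42.4% ± 0.511 in DFO cells, 42.6% ± 0.407 in SA cells and 42.7% ± 1.42 in control cells. The ratio of Slc30a1 to Slc30a9, that of the plasma membrane to the mitochondrial exporter, was 1.88 ± 0.120 in DTPA cells, 0.585 ± 0.0354 in DFO cells, 0.560 ± 0.00405 in SA cells and 0.599 ± 0.0386 in control cells.

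**Figure D4:**
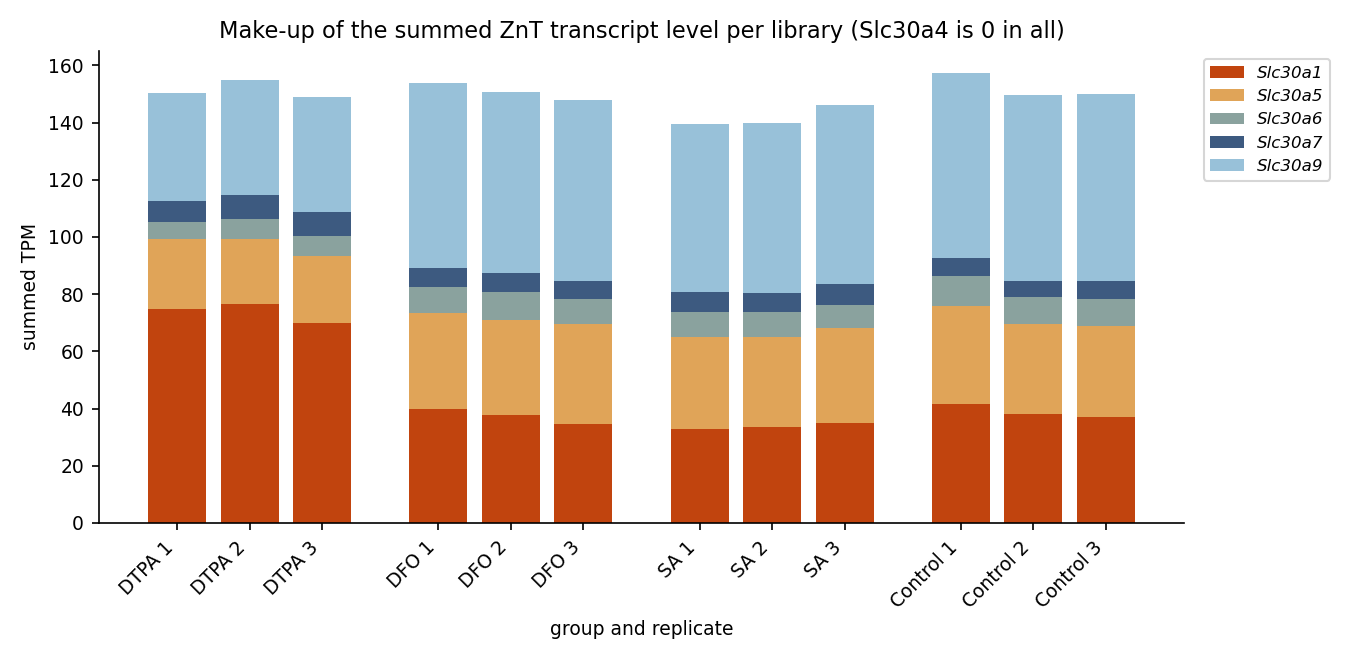
Stacked TPM (y axis, linear, from 0) of the 5 ZnT genes with reads in each of the 12 libraries (x axis, group and replicate). The bars reach between 139.7 and 157.2 TPM in all groups; in the DTPA libraries the Slc30a1 share at the bottom is larger and the Slc30a9 share at the top smaller than in every other library.

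The order of the levels in TPM changed with the make-up. TPM here was scaled to all annotated exon bases of a gene, 12374 for Slc30a9 and 3075 for Slc30a6. The transcripts made can be shorter, so a sum, a share or an order across genes depends on these lengths. In DTPA cells the order was Slc30a1, Slc30a9, Slc30a5, Slc30a7 and Slc30a6, from high to low, and no 2 neighbours overlapped. In DFO, SA and control cells it was Slc30a9, Slc30a1, Slc30a5, Slc30a6 and Slc30a7. There, Slc30a1 and Slc30a5 overlapped in the DFO libraries (37.4 ± 2.59 and 33.9 ± 0.951 TPM) and in the SA libraries (33.9 ± 1.15 and 32.1 ± 0.870 TPM), so their order is not resolved; all other neighbours were apart.

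No member passed in DFO cells (0 of 5 by limma and by voom on recovered reads, and 0 of 5 at an unadjusted p below 0.05). In DFO cells the levels were 39.9, 37.6 and 34.7 TPM for Slc30a1, with a log2 fold change against control of -0.06 (95% interval -0.18 to 0.07; adjusted p = 0.578, limma). Slc30a5 was at 33.5, 33.3 and 35.0 TPM, with a log2 fold change of 0.06 (interval -0.03 to 0.16; adjusted p = 0.407, limma). Slc30a6 was at 9.25, 9.78 and 8.46 TPM, with a log2 fold change of -0.08 (interval -0.26 to 0.09; adjusted p = 0.575, limma). For these 3 genes the DFO and control libraries overlapped.

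Slc30a7 was at 6.40, 6.68 and 6.25 TPM in DFO cells, just above the 3 control libraries, with a log2 fold change of 0.08 (interval -0.06 to 0.22; adjusted p = 0.473, limma). Slc30a9 was at 64.9, 63.3 and 63.6 TPM, overlapping the control libraries, with a log2 fold change of -0.03 (interval -0.10 to 0.04; adjusted p = 0.679, limma). Under DFO 10.7% of all tested genes passed, and the groups of 30.2% did not overlap, as for 1 of the 5 members. The widest interval was that of Slc30a6, and no interval reached the value of the same gene under DTPA.

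In SA cells, 2 members fell slightly. Slc30a1 was at 32.9, 33.6 and 35.1 TPM in SA cells, against 41.5, 38.3 and 37.1 TPM in control cells, with no overlap; the log2 fold change was -0.20 (SE 0.0566; adjusted p = 0.0295, limma). Slc30a9 was at 58.9, 59.5 and 62.9 TPM in SA cells, below every control library; the log2 fold change was -0.11 (SE 0.0318; adjusted p = 0.0357, limma). Both calls were lost when any of several single libraries was left out: Slc30a1 without control replicate 1 or 2 or SA replicate 1 or 2 (adjusted p between 0.0550 and 0.104, limma), and Slc30a9 without any 1 of those or control replicate 3 (adjusted p between 0.0674 and 0.122, limma). Without a filter on low values neither passed (adjusted p = 0.0623 for Slc30a1 and 0.0507 for Slc30a9, limma). Under median-of-ratios scaling both passed, Slc30a9 at -0.16.

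The other 3 members did not pass under SA. Slc30a5 was at 32.1, 31.3 and 33.0 TPM in SA cells, overlapping control, with a log2 fold change of -0.01 (95% interval -0.11 to 0.08; adjusted p = 0.861, limma); its sign turned to 0.0260 without control replicate 1 and to 0.00471 without SA replicate 2. Slc30a6 was at 8.76, 8.75 and 8.06 TPM in SA cells, all below control, with a log2 fold change of -0.18 (adjusted p = 0.147, limma). Slc30a7 was at 7.05, 6.60 and 7.18 TPM in SA cells, all above control, with a log2 fold change of 0.17 (adjusted p = 0.0714, limma); by voom on recovered reads it passed, at 0.18 (adjusted p = 0.0313). Among all tested genes, 22.2% passed under SA and 6.74% passed as lower, and the groups of 38.5% did not overlap, as for 4 of the 5 members. Median-of-ratios scaling turned the split of all called genes to 1125 higher and 1624 lower, against 1839 higher and 804 lower as reported.

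**Figure D5:**
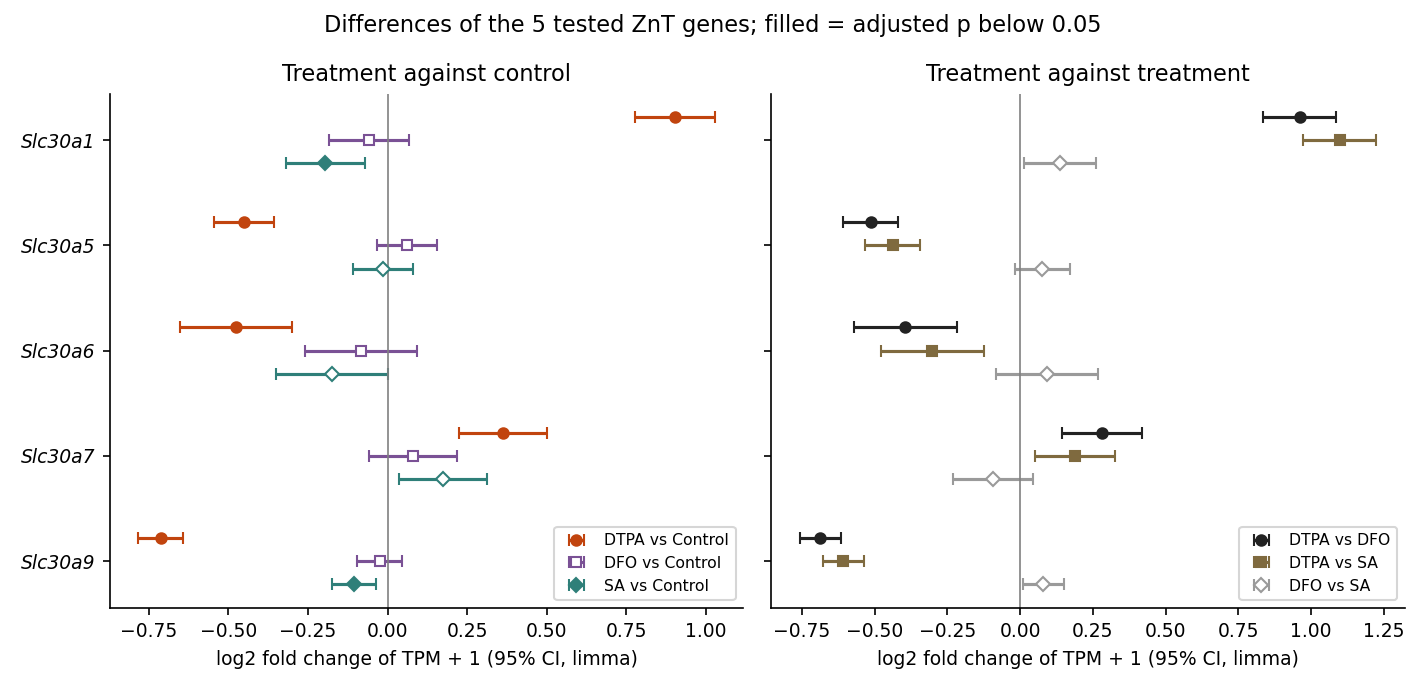
Log2 fold change of TPM + 1 (x axis) with its 95% interval from limma for the 5 tested ZnT genes (rows), each treatment against control on the left and treatment against treatment on the right; filled symbols passed at an adjusted p below 0.05. DTPA symbols lie at 0.90 (Slc30a1), 0.36 (Slc30a7), -0.45 (Slc30a5), -0.48 (Slc30a6) and -0.71 (Slc30a9) on the left. The DFO symbols lie between -0.08 and 0.08 and are open. The SA symbols lie between -0.20 and 0.17, filled for Slc30a1 (-0.20) and Slc30a9 (-0.11). All DTPA contrasts on the right are filled.

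The differences of DTPA from the other treatments were tested directly. Against DFO cells, all 5 tested members passed in the directions seen against control: log2 fold changes were 0.96 for Slc30a1 (adjusted p = 2.86e-08), 0.28 for Slc30a7 (0.00188), -0.51 for Slc30a5 (6.05e-07), -0.39 for Slc30a6 (0.000972) and -0.69 for Slc30a9 (3.42e-09), all by limma. In this contrast 65.9% of all tested genes passed, 19.5% higher and 46.4% lower. Median-of-ratios scaling gave -0.23 for Slc30a6 and 0.45 for Slc30a7, both still called (voom gave 0.42 for Slc30a7). The contrasts with control and with DFO share the DTPA libraries, so the second is no independent repeat of the first.

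Against SA cells the log2 fold changes were 1.10 for Slc30a1 (adjusted p = 8.53e-09), 0.19 for Slc30a7 (0.0195), -0.44 for Slc30a5 (2.42e-06), -0.30 for Slc30a6 (0.00559) and -0.61 for Slc30a9 (9.82e-09), all by limma. Here 67.1% of all tested genes passed, 20.1% higher and 47.0% lower. The call of Slc30a7 was lost without DTPA replicate 2 or 3 or SA replicate 2 (adjusted p = 0.0605, 0.0795 and 0.0737, limma). The call of Slc30a6 was lost under median-of-ratios scaling, at a log2 fold change of -0.13 (adjusted p = 0.144, limma). The same scaling gave 0.36 for Slc30a7 and -0.25 for Slc30a5, both still called (voom gave 0.31 for Slc30a7). Between DFO and SA cells none of the 5 passed (0 of 5, and 1 of 5 by voom on recovered reads; 2 of 5, Slc30a1 and Slc30a9, had an unadjusted p below 0.05), while 13.5% of all tested genes did. Slc30a1 had the largest difference of the 5, with a log2 fold change of 0.14 (95% interval 0.01 to 0.26; adjusted p = 0.143, limma).

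Of the other 4 family genes in the tables, Slc30a10 had a higher TPM than every member in all 12 libraries. Its product is known mainly as a manganese exporter. It was at 124.7 ± 1.28 TPM in DTPA cells, 121 ± 3.59 TPM in DFO cells, 119 ± 3.32 TPM in SA cells and 115 ± 4.15 TPM in control cells (SD, n = 3 each). It rose slightly in DTPA cells against control (log2 fold change 0.12; adjusted p = 0.00528, limma; 0.25 under median-of-ratios scaling and 0.20 by voom on recovered reads) and passed in neither other comparison with control. Directly compared, Slc30a10 in DTPA cells did not pass against DFO cells (log2 fold change 0.04, adjusted p = 0.299, limma). Nor did it pass against SA cells (0.07, adjusted p = 0.0659, limma). Slc30a2 had between 2 and 11 reads per library, below the filter, and Slc30a3 and Slc30a8 had none in any library. Part of the Slc30a10 exons, 9.13%, overlaps the antisense gene Gm2061, which was at 22.9 to 33.0 TPM. For Slc30a1, 8.92% of exon bases overlap an antisense gene, 1700034H15Rik, that stayed at or below 1.00 TPM. For Slc30a7, 16.0% overlap Gm43106 and Gm6649, which stayed at or below 0.849 TPM. The strand setting of the counting is not given in the sources used here, so reads from these overlaps cannot be assigned; Slc30a5, Slc30a6 and Slc30a9 have no such overlap.

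The metallothioneins and their activator were measured in the same libraries. In DTPA cells the 3 tested genes among the metallothioneins and Mtf1 (5 genes listed) all fell. Of all tested genes, 42.1% passed as lower there. Mt1, a cytosolic zinc-binding protein, was at 122 ± 3.52 TPM in DTPA cells and 1872 ± 71.4 TPM in control cells, a log2 fold change of -3.93 (adjusted p = 2.22e-15, limma). Mt2 was at 9.82 ± 1.26 TPM in DTPA cells and 2519 ± 83.7 TPM in control cells, a log2 fold change of -7.87 (adjusted p = 2.13e-14, limma). Mtf1, the zinc sensor, was at 16.3 ± 0.535 TPM in DTPA cells and 23.7 ± 0.681 TPM in control cells, a log2 fold change of -0.51 (adjusted p = 2.94e-07, limma). Slc30a1 therefore moved opposite to both metallothioneins, the other known MTF1 targets in this list, in the same libraries.

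Of the 14 ZIP importer genes, which bring zinc into the cytosol, 9 were tested, and in DTPA cells 2 rose, 2 fell and 5 did not pass. The median log2 fold change over the 9 was 0.13, and -0.11 over all tested genes. Of all tested genes, 65.5% passed under DTPA (23.5% higher and 42.1% lower), 10.7% under DFO and 22.2% under SA. Slc39a10 was at 18.7 ± 0.688 TPM in DTPA cells and 1.58 ± 0.0799 TPM in control cells, a log2 fold change of 2.93 (adjusted p = 5.01e-10, limma). Slc39a1 rose by 0.32 and Slc39a3 fell by 0.54 on the log2 scale (adjusted p = 0.00360 and 0.000218, limma); median-of-ratios scaling and voom each gave 5 higher and 2 lower. In DFO cells Slc39a6 rose by 0.31 (adjusted p = 0.00927, limma) and the other 8 did not pass. In SA cells Slc39a6 rose by 0.21 and Slc39a8 by 0.09 (adjusted p = 0.0297 and 0.0417, limma), and neither passed under median-of-ratios scaling.

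Among the metallothioneins and Mtf1, Mt1 rose by 0.12 in DFO cells (95% interval 0.06 to 0.19, limma), missing the threshold after median-of-ratios scaling, and fell by 0.11 in SA cells (adjusted p = 0.0157, limma). Mt2 and Mtf1 passed in neither.

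All 10 erythroid markers were tested, and their summed level was between 41308 and 43020 TPM in DTPA cells, 27175 and 29219 TPM in DFO cells, 22784 and 23354 TPM in SA cells and 36885 and 40148 TPM in control cells. Of 10 megakaryocyte markers 4 were tested, with a summed level of 36.5 to 45.8 TPM in DTPA cells, 10.3 to 10.9 TPM in DFO cells, 8.27 to 9.87 TPM in SA cells and 8.23 to 9.34 TPM in control cells. Itgb3, Gp9 and Gp1ba rose under DTPA, though the DTPA and control libraries of Gp9 overlapped (adjusted p = 0.0373, limma). Itga2b did not pass (log2 fold change 0.10, adjusted p = 0.500, limma). Another 4 markers, among them Ppbp, Gp1bb and Gp6, were at 0 in all libraries. Of 12 mast and myeloid markers 1 was tested (Hdc, which rose), with a sum of 2.60 to 3.59 TPM in DTPA cells, 0.698 to 0.931 TPM in DFO cells, 0.748 to 1.03 TPM in SA cells and 0.352 to 0.502 TPM in control cells, and 6, among them Mpo, Lyz2 and Itgam, were at 0. Of 9 lymphoid markers 1 was tested (Cd79a, which rose), with a sum of 1.37 to 2.04 TPM in DTPA cells, 0.369 to 0.777 TPM in DFO cells, 0.525 to 0.900 TPM in SA cells and 0.361 to 0.757 TPM in control cells, and 6, among them Cd79b, Cd3g and Cd8a, were at 0. In control and DFO cells the whole myeloid and lymphoid sums stayed below the 1 TPM of the filter. Hdc and Cd79a thus entered the test through their levels in DTPA cells, and their rise there could hardly have come out otherwise. All 4 sums, the erythroid one included, were higher in DTPA cells than in every other group, as Slc30a1 and Slc30a7 were. The erythroid sum does not stand for its list. The median log2 fold change of the 10 markers against control was -0.47, and -0.11 over all tested genes. Of the single erythroid markers, 3 rose, 6 fell, as Slc30a5, Slc30a6 and Slc30a9 did, and 1 did not pass against control. Among all tested genes 23.5% passed as higher and 42.1% as lower. The part of the markers in the ZnT results was not tested. In bulk RNA, a change in the number of cells with a transcript and a change in its amount per cell cannot be told apart.

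For each tested member the genes outside the family with the most similar profile over the 12 libraries were found by Pearson's r of log2(TPM + 1), as a description; the libraries fall into 4 groups, and r mostly reflects the gap between DTPA and the rest. For Slc30a1 they were Slc44a1 (r = 0.995), Fli1 (0.994) and Ston2 (0.993). Fli1, a transcription factor of megakaryocytes, was at 43.6 ± 0.699 TPM in DTPA cells and 21.3 ± 1.43 TPM in control cells. For Slc30a9 they included Tfdp2 (0.996) and Rpia (0.996), and Rpia, an enzyme of the pentose phosphate pathway, was at 75.8 ± 0.691 TPM in DTPA cells and 145 ± 3.03 TPM in control cells. For Slc30a5 they were Spast (0.992), Ndufb3 (0.989) and Ywhaq (0.987). The likeness was lower for the less abundant Slc30a6, with Ppa1 (0.969), Cdk5rap3 (0.969) and Ndufaf1 (0.964), and for Slc30a7, with Nap1l1 (0.966), Snx2 (0.966) and Rps3 (0.965).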

How the data were processed

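Polyadenylated RNA was sequenced in 12 libraries, with groups and replicate numbers from the sample titles and treatment tags; the labels name no batch. Per the labels' protocols, total RNA went into stranded mRNA libraries. The tools, per the submitters' processing notes, were HISAT2 2.1.0, featureCounts, edgeR, Trimmomatic 0.33 and FastQC, on build mm10; their settings were not given in the sources used here. What the authors deposited is a table of TPM for each library. TPM is a share of the library and keeps no total. Multiplied by GENCODE M21 exon lengths (53243 of 55487 rows), 98.8% to 98.9% of values up to 200 reads came out whole within 0.1 read, which gave 19861984 to 24336691 reads per library. Of 114 repeated symbols, the row with the highest mean was used. Replicates differed beyond sampling noise (chi-square per degree of freedom 2.00 to 5.30) and no pair was identical.

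Values were taken as log2(TPM + 1), which understates the change of low genes, and fitted with limma 3.58.1 (trend on) in R 4.3.3 over all 12 libraries, 1 mean per group, for genes that reached 1 TPM in 3 or more libraries. Adjustment of p-values was by Benjamini and Hochberg over these genes, with a threshold of 0.05. The fit was tested on simulated data. Ratios are of mean TPM. Promoters were read from the RefSeq table with Python 3.11.15 and pandas 2.3.3, and drawn with matplotlib 3.10.9. As alternatives, each fit was repeated with a pseudocount of 0.1 or 5, without a filter or with a 5 TPM filter, after median-of-ratios scaling, on just the 6 libraries of the contrast, with replicate number as a block, with single libraries left out, and by voom on the recovered reads (at least 10 in 3 libraries).

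The members and lists were chosen with earlier results of these data known. Named were all members, the rest of the family, Mt1, Mt2, Mtf1 and Slc39a10, up to 2 more called genes per list by size of change, marker lists, and the 3 most similar genes per member, leaving out predicted gene models (a few named genes are not reported here); the antisense genes were added for their overlap.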

Additional observations from a re-analysis of the deposited data

How the results depend on the processing

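Against control and against DFO, the calls of the 5 tested members under DTPA held with the same direction in all 20 alternatives run for each. Over all comparisons, 579 values of members under an alternative kept their direction and side of the threshold, 17 no longer passed, 2 newly passed and 2 reversed. The reversed values were those of Slc30a5, SA against control, at 0.0260 without control replicate 1 and 0.00471 without SA replicate 2, against -0.01 as reported and -0.0376 at the lowest with a library left out. The number of members lower in SA cells than in control cells was 2; it was 0 without a filter, 1 in a fit of only the 6 libraries compared, and 0 to 2 with a library left out. Voom on recovered reads gave 1 member higher in SA cells than in control cells (Slc30a7, 0.18, adjusted p = 0.0313) and 1 higher in DFO cells than in SA cells (Slc30a9, 0.08, adjusted p = 0.0406), against 0 for both. Members higher in DTPA than in SA cells were 1 in a fit of only the 6 libraries and 1 to 2 with a library left out, against 2. Genes called between DFO and control cells were 802 in a fit of only the 6 libraries and 840 to 1244 with a library left out, against 1272. Median-of-ratios scaling gave 423 higher and 646 lower there, against 1000 and 272; it gave 3775 and 3807 for DTPA against DFO, where 2330 and 5528 were reported, and 3794 and 3884 for DTPA against SA, where 2395 and 5599 were reported. The cause was not tested. Libraries with the same replicate number correlated between -0.0430 and 0.0534 in their deviations from the group means. Those with different numbers correlated between -0.0621 and 0.0571, and in 14 of 36 cases a library was most like its own number. No effect of the number was seen, which does not show that the cultures were unpaired. With the replicate number as a block, 7747 genes passed for DTPA against control and 2433 for SA against control, and no count of members changed. Slc30a4, without reads, gave no value in any alternative. Depth limits Slc30a6 most.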
